A study of Mus musculus with 4 samples.

Results

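The genes described here carry fatty acids, store them in lipid droplets, release them and burn them: Pparg, Fabp4, Fabp5, Plin2, Dgat1, Dgat2, Pnpla2, Acsl1, Cpt1a and Angptl4. They were chosen by name, as 10 of the 55401 Ensembl genes in the deposited count table, and all 10 passed the filter on low counts. The cells were macrophages of C57BL/6J mice, grown from bone marrow in culture. In 2 libraries (Adcy7 knockout, replicates 1 and 2) the marrow cells had received a CRISPR-Cas9 lentivirus against Adcy7, the gene of an adenylyl cyclase, and in the other 2 (Rosa control, replicates 1 and 2) the virus was aimed at Rosa, a locus used as a neutral target. Virus was given to both groups on day 1 after isolation at a multiplicity of infection of 30, macrophages formed over 5 days, and the label gave batch 1 for all 4 libraries. The labels name no guide sequence, selection or cloning step, or number of mice behind a library.

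Long-chain fatty acids enter a cell, bind to small cytosolic carriers of the FABP family, and are coupled to coenzyme A by acyl-CoA synthetases. The acyl-CoA is then either built into triglyceride, which is kept in lipid droplets coated by perilipins, or passed to carnitine by CPT1 and oxidised in mitochondria. The nuclear receptor PPAR gamma switches on many of these genes in adipocytes and macrophages. In adipocytes, cyclic AMP, the product of adenylyl cyclases, drives droplet breakdown through protein kinase A.

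The knockout libraries held 71914179 and 61782358 counts and the control libraries 65766496 and 69874955. Levels are given as CPM, a gene's counts scaled to the total of its library. Adcy7 mRNA, the check of the labels, was at 59.4 and 58.8 CPM in the knockout libraries, against 122 and 125 CPM in the control libraries, a log2 fold change of -1.05 (SE 0.09, adjusted p 4.6e-06). Differences were tested with edgeR's quasi-likelihood test over 15832 genes, and a gene passed at a Benjamini-Hochberg adjusted p under 0.05. Of all genes tested, 49.6% passed, 25.0% higher in the knockout and 24.6% lower, and in 75.2% the CPM of the groups did not overlap. Counts of genes that rose or fell in a list stand beside these shares. No label ties the replicates to separate mice or cultures, so each p-value here reflects library-to-library spread alone, which may be technical.

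Markers of macrophages and of other cells moved with the groups as well. Of 12 macrophage markers 10 fell and Cd14 rose, and their summed level was 22790.1 to 22991 CPM in the knockout, against 58167 to 60038 CPM in the control. Most of that sum was Lyz2, the lysozyme gene, and the other 11 markers summed to 6350.3 to 6523 CPM in the knockout, against 7810 to 7828 CPM in the control. C1qa, a complement gene of mature macrophages, had 4 and 0 counts in the knockout libraries, against 5032 and 4675 counts in the control libraries. Eosinophil markers summed to 219 to 279 CPM in the knockout, against 30.8 to 33.6 CPM in the control, and 4 of 5 tested rose. Mast cell and basophil markers, 5 of 6 higher, summed to 56.3 to 58.6 CPM in the knockout, against 24.6 to 32.6 CPM in the control. Without Hdc, which did not pass, these sums were 26.2 to 27.5 CPM in the knockout, against 2.50 to 2.86 CPM in the control. All 8 platelet markers rose, to a sum of 306 to 343 CPM in the knockout, against 182 to 198 CPM in the control. Without Pf4, the most abundant, the platelet sums were 117 to 135 CPM in the knockout, against 28.0 to 29.5 CPM in the control. Dendritic cell markers, 4 of 6 higher, summed to 47.9 to 49.0 CPM in the knockout, against 5.47 to 6.08 CPM in the control, with Ccr7 at 41.1 CPM in each knockout library. Of 5 tested B cell markers 4 rose and 1, Cd79b, fell (sums 37.5 to 40.2 CPM in the knockout, 27.1 to 28.1 CPM in the control). Without Cd79b the B cell sums were 21.8 to 22.9 CPM in the knockout, against 1.89 to 2.29 CPM in the control. Stromal markers, 2 of 5 higher, summed to 43.5 to 48.6 CPM in the knockout, against 2.13 to 3.04 CPM in the control. Dcn gave most of the knockout sum (32.9 and 39.9 CPM), and Col1a1, Col1a2 and Col3a1 did not pass. The erythroid sum was 9.82 to 13.4 CPM in the knockout, against 1.66 to 1.82 CPM in the control, with 2 of 4 higher. Neutrophil markers overlapped in sum (5205 to 6660.2 CPM in the knockout, 5795 to 7074 CPM in the control), with 4 of 9 lower. T and NK cell markers (of 4 tested, Lck higher and Nkg7 lower) summed to 9.70 to 10.5 CPM in the knockout, against 4.71 to 5.26 CPM in the control, and without Lck to 2.32 to 2.44 CPM in the knockout, against 3.42 to 4.23 CPM in the control. Endothelial markers (1 of 3 higher) summed to 19.4 to 20.9 CPM in the knockout, against 13.5 to 17.3 CPM in the control. Adipocyte markers were at or near 0: Adipoq, Plin1, Lep and Cfd had no count in any library, and of the 8 markers only Lipe, which macrophages express too, exceeded 1 CPM. The part of other cells in the lipid genes' values was not tested, and in bulk RNA fewer cells of a type and less RNA per cell cannot be told apart.

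Of the 10 genes, 3 were higher in the knockout (Acsl1, Dgat2 and Plin2), 3 were lower (Fabp4, Pparg and Cpt1a) and 4 did not pass (Fabp5, Dgat1, Pnpla2 and Angptl4). The share that passed, 60%, stands beside the 49.6% of all genes. The groups did not overlap for 8 of the 10, against 75.2% of all genes. Their median log2 fold change was -0.20 and that of all tested genes 0.01, and the median sizes without sign were 0.41 and 0.53. The plot of levels by library shows all 10.

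**Figure D1:**
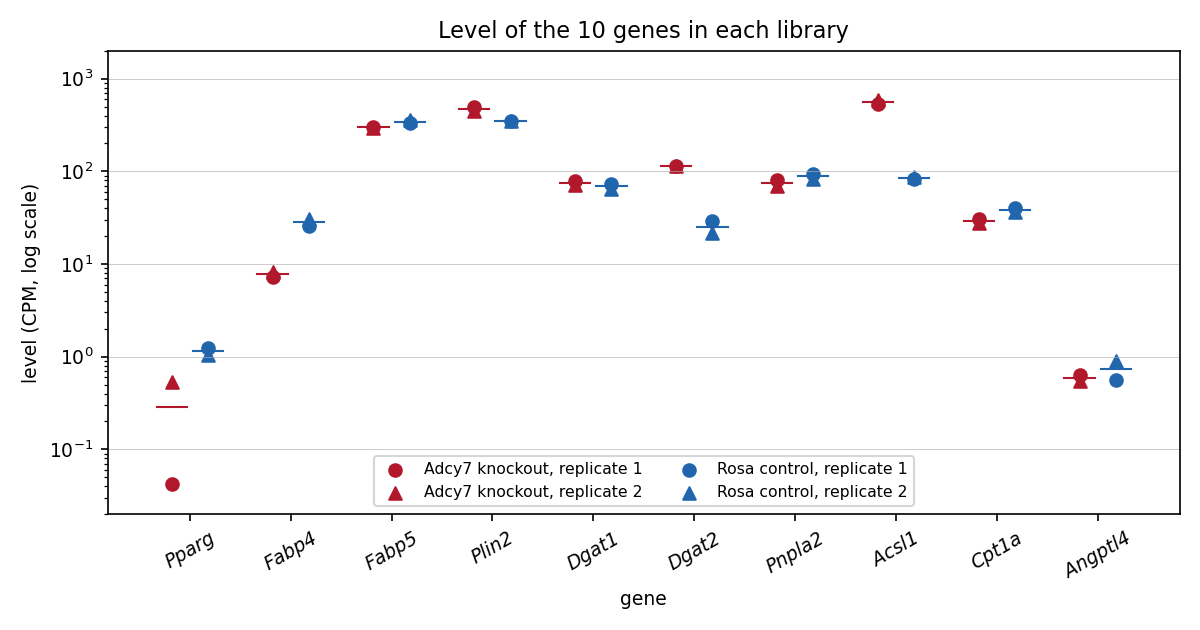
Level of each gene in CPM (log scale) in the 2 Adcy7 knockout libraries (red, left of each pair) and the 2 Rosa control libraries (blue, right). Circles are replicate 1, triangles replicate 2 and lines the group mean. Acsl1 at 531 and 591 CPM lies far above its control points at 83.5 and 87.9 CPM, and the knockout points of Pparg lie apart at 0.0417 and 0.534 CPM.

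Pparg, the gene of PPAR gamma (ENSMUSG00000000440, chromosome 6), was scarce in every library. It had 3 and 33 counts in the knockout libraries, or 0.0417 and 0.534 CPM, against 82 and 72 counts, or 1.25 and 1.03 CPM, in the control libraries. Both knockout values lay below both control values, and the knockout libraries differed from each other more than the control libraries did. Its log2 fold change in edgeR was -2.05, with a standard error (SE) of 0.64 and an adjusted p of 0.0201. It was -1.09 without knockout replicate 1, with an adjusted p of 0.157, and -4.66 without knockout replicate 2, with an adjusted p of 0.0029. The call was also lost with DESeq2 (adjusted p 0.0695), with no low-count filter (0.0984) and with the older edgeR fit (0.0918). Low counts pile up at multiples of 4, so that 3 sequenced fragments would equal about 0.167 to 0.194 CPM, and knockout replicate 1 lay under that level. Gene counts do not tell the PPAR gamma isoforms from each other.

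The other receptor of the family with counts, Ppard (PPAR delta), was the more abundant one and rose. Ppard was at 92.2 and 84.5 CPM in the knockout libraries, against 43.5 and 40.1 CPM in the control libraries, a log2 fold change of 1.10 (SE 0.10, adjusted p 7.03e-06). Ppara had no count in any library. Per kb of transcript, Pparg made up 0.0838% and 1.16% of the summed PPAR level in the knockout libraries, against 5.04% and 4.55% in the control libraries. Among 12 tested genes of PPAR partners and coregulators, 3 rose (Ppard, Nr1h2 and Ppargc1a), none fell and 9 did not pass. The shares of all genes were 25.0% higher and 24.6% lower. Nr1h2, the gene of the receptor LXR beta, had a log2 fold change of 0.35 (SE 0.10, adjusted p 0.0122). Its call was lost with no low-count filter (adjusted p 0.0516) and without control replicate 1 (0.0662) or control replicate 2 (0.154). The partner receptor gene Rxra was at 45.8 and 41.7 CPM in the knockout libraries, against 39.0 and 33.6 CPM in the control libraries, and did not pass (adjusted p 0.0581). Ppargc1a, which codes for a PPAR coactivator, had 31 and 35 counts in the knockout libraries, or 0.431 and 0.567 CPM, and none in either control library. With so few counts, the size of its rise was poorly determined (log2 fold change 8.07, SE 1.65). Without knockout replicate 2, 5 of the list rose.

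Textbook PPAR targets other than the genes described here moved in both directions. Of all tested genes, 25.0% were higher and 24.6% lower. Of 9 tested, 3 rose (Hilpda and Olr1 among them), 5 fell (Lpl, Cd36, Acadvl, Acadm and Ech1) and 1 did not pass, while 9 more were not tested, 6 of them with no count in any library. Without control replicate 1, 3 fell. Cd36, the gene of a fatty acid receptor and carrier of the cell surface, was at 37.1 and 47.5 CPM in the knockout libraries, against 137 and 148 CPM in the control libraries (log2 fold change -1.74, SE 0.12, adjusted p 6.08e-07). Olr1, which codes for a receptor of oxidised lipoprotein, was at 15.6 and 19.8 CPM in the knockout libraries, against 0.973 and 1.20 CPM in the control libraries.

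Fabp4 (chromosome 3), the gene of the adipocyte and macrophage fatty acid carrier also called aP2, fell. It was at 7.20 and 8.29 CPM in the knockout libraries, against 25.5 and 30.8 CPM in the control libraries. The groups lay well apart, and the mean of 7.75 ± 0.767 CPM in the knockout was 27.5% of the 28.1 ± 3.68 CPM in the control (SD, n = 2 each). Fabp4's log2 fold change was -1.85 (SE 0.15, adjusted p 2.23e-06), and it passed under all 12 other settings tried.

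Fabp5, the epidermal carrier encoded on the same chromosome, was 1 of the 2 most abundant of the 10 genes per kb of transcript, with Plin2. It was at 303 and 296 CPM in the knockout libraries, against 329 and 357 CPM in the control libraries. The groups did not overlap, but the gap was small: the log2 fold change was -0.18 with a 95% interval of -0.39 to 0.02 and an adjusted p of 0.129. The processed pseudogene Fabp5l2 had no count in any library.

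The other carriers of the family with counts moved in opposite directions. Fabp3, the heart carrier, rose to 25.3 and 30.2 CPM in the knockout libraries, against 5.02 and 4.67 CPM in the control libraries (log2 fold change 2.53, SE 0.15). Fabp7, the brain carrier, fell to 0.487 and 0.793 CPM in the knockout libraries, against 12.6 and 11.6 CPM in the control libraries (log2 fold change -4.24, SE 0.25). Their adjusted p values were 1.82e-07 and 2.08e-07. Fabp5 held 88.6% and 86.5% of the family's level per kb in the knockout libraries, against 86.9% in each control library. In the knockout Fabp3 was the next, with 8.87% and 10.6%, and in the control Fabp4 was, with 7.42% and 8.24%. With the length of all annotated exons the next in the control was Fabp7, with 8.83% and 7.58%, and Fabp3 held 26.1% and 30.0% in the knockout. Of 9 tested genes of fatty acid uptake and binding beside the 10, 2 rose (Slc27a4 and Fabp3) and 4 fell (Cd36, Fabp7, Dbi and Scp2). The other 3 did not pass, and of all genes 25.0% rose and 24.6% fell.

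**Figure D2:**
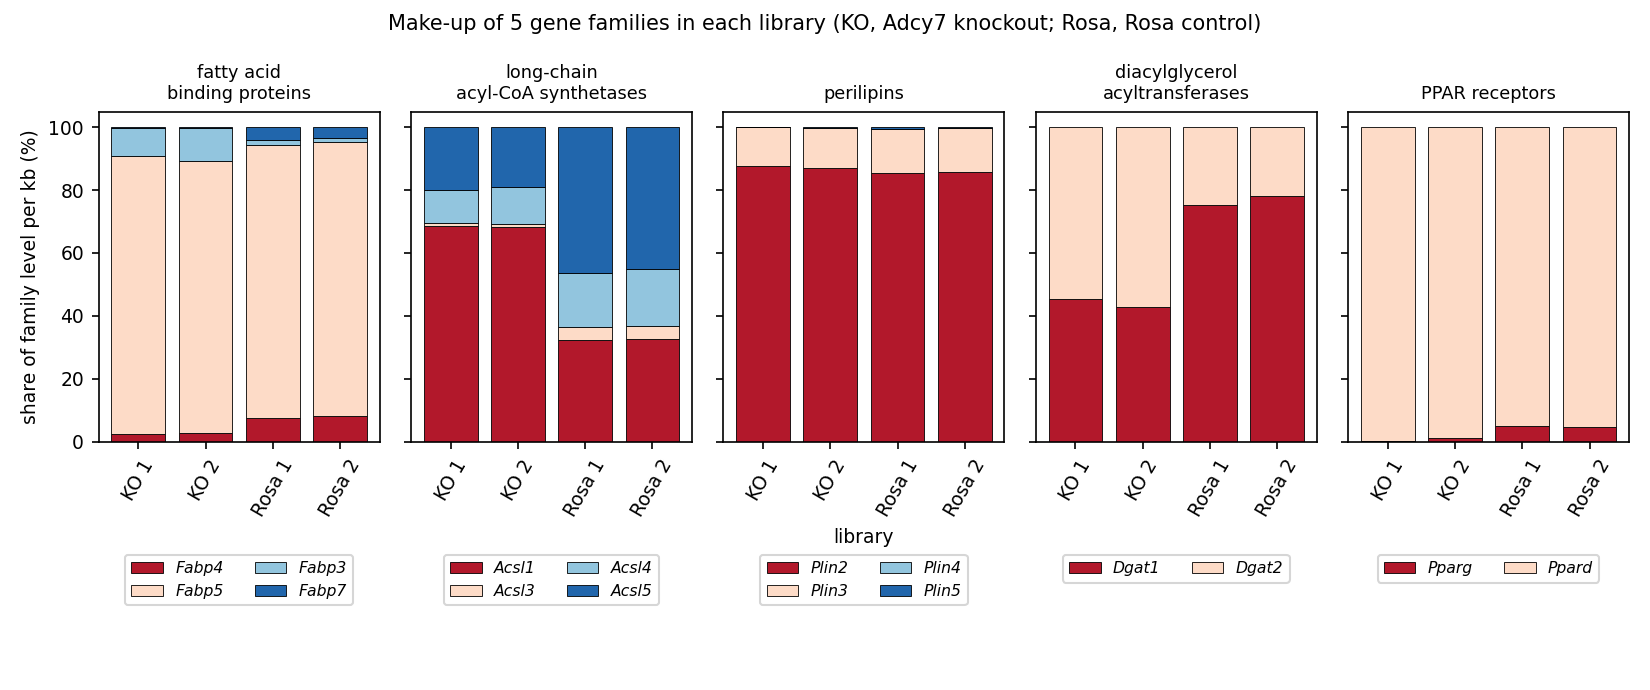
Share of each gene in the summed level per kb of its family, in percent, for each library, with the Adcy7 knockout libraries (KO) left of the Rosa control libraries (Rosa). Acsl1 takes 68.6% and 68.4% of the acyl-CoA synthetase level in the knockout bars and 32.4% and 32.6% in the control bars, and Dgat2 takes 54.7% and 57.1%, against 24.7% and 21.9%.

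Acsl1 (chromosome 8), which couples long-chain fatty acids to coenzyme A, had the largest rise of the 10. It was at 531 and 591 CPM in the knockout libraries, against 83.5 and 87.9 CPM in the control libraries. Every knockout value was several times every control value, and the means of 561 ± 42.5 and 85.7 ± 3.12 CPM (SD, n = 2 each) differed 6.55-fold. On the log2 scale the difference was 2.73 (SE 0.10, adjusted p 5.14e-09), and it lay between 2.67 and 2.78 in the 12 other settings. A gene on the opposite strand, Gm45244, overlaps Acsl1 and had 52 and 56 counts in the knockout libraries, against 2 and 4 in the control libraries. Acsl1 itself had 38204 and 36538 counts in the knockout libraries, against 5489 and 6140 in the control libraries. Whether counting used the strand is not stated, so reads of such a pair cannot be told apart.

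Acsl1 was the leading long-chain acyl-CoA synthetase in the knockout but not in the control. It held 68.6% and 68.4% of the family's level per kb in the knockout libraries, against 32.4% and 32.6% in the control libraries. Acsl5 held 20.0% and 19.0% in the knockout libraries and was the largest in the control libraries, with 46.4% and 45.2%. With the length of all annotated exons in place of the principal transcript, Acsl1 held 47.2% and 46.9%, against 16.5% and 16.6%. With 2 libraries a group an exact permutation test of such a share cannot give a two-sided p under 0.333, so none is given. In CPM, Acsl4 and Acsl5 rose as well (log2 fold changes 0.99 and 0.42, adjusted p 3.69e-05 and 0.00262), and Acsl3 fell (-0.65, adjusted p 0.00592). All tested genes gave 25.0% higher and 24.6% lower. Of 15 tested acyl-CoA synthetases and thioesterases beside Acsl1, 6 rose, 5 fell and 4 did not pass. Without control replicate 1, 3 of them rose, and without control replicate 2, 3 fell. Acsbg1, which activates very long fatty acids, was at 24.8 and 23.3 CPM in the knockout libraries, against 1.31 and 0.987 CPM in the control libraries. Acss2, which activates acetate, fell by 1.33 on the log2 scale (SE 0.11). The thioesterase gene Acot1 had a log2 fold change of -2.88 (SE 0.24), but reads may be split with its close copy Acot2, which was among the 6 that rose.

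The 250 bases before both annotated starts of Acsl1 are shown because this gene changed most of the 10. Those of Plin2 and Cpt1a, which moved in opposite directions, are shown beside them. The sequences come from RefSeq on build GRCm38.p6, while the submitters' notes name another build, GRCm39, for the counts. Promoter windows for 5 of the 10 genes matched by symbol, and 8 windows in all. Capitals mark each match to AGGTCA, the core letters bound by nuclear receptors, on either strand.
Acsl1 first start, chr8:46470787-46471036, + strand: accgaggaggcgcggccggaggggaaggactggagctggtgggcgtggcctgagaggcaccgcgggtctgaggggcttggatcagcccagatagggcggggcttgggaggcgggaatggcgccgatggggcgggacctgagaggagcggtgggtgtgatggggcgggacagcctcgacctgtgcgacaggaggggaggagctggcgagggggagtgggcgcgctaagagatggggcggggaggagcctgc
Acsl1 second start, chr8:46490716-46490965, + strand: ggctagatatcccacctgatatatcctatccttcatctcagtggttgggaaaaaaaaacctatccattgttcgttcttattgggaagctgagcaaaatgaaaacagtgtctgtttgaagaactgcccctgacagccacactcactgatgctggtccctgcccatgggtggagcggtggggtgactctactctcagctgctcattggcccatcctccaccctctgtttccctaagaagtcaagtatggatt
Plin2, chr4:86670060-86670309, - strand: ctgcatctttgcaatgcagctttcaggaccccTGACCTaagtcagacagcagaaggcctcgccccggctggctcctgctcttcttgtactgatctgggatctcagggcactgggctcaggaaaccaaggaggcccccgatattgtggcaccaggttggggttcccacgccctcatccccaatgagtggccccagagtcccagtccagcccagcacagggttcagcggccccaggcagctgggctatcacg
Cpt1a, chr19:3323051-3323300, + strand: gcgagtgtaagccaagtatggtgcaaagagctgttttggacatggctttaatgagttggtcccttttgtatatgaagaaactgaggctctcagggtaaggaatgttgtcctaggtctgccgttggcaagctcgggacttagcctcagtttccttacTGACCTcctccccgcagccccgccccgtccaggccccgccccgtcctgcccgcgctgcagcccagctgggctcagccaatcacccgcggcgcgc

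Neither Acsl1 window held AGGTCA, while the Plin2 window held it once, from 218 bases before the start, and the Cpt1a window once, from 94 bases before it. Of 32851 promoter windows of the same length, 4607 held this motif. The first and second Pparg windows held it once each as well. The full PPAR element, AGGTCA repeated with 1 base between, contains that motif and was in 0.0335% of all windows and in none of the 8. Also in none of the 8 were the cyclic AMP response element TGACGTCA (1.55% of all windows), its shorter form TGACG, which it contains (17.8%), the AP-1 site TGANTCA (6.75%), the hypoxia response core ACGTG (16.6%) and one form of the NF-kB site (0.980%). Both strands were searched for each. A match or its absence describes these letters in this window only, and the level at each start was not measured.

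DGAT1 and DGAT2 are unrelated enzymes that carry out the last step of triglyceride synthesis. Dgat2 (chromosome 7) rose, to 113 and 114 CPM in the knockout libraries, against 29.0 and 21.6 CPM in the control libraries. The knockout libraries were nearly equal, and the lowest of them was far above the highest control. The difference was 2.18 on the log2 scale (SE 0.13, adjusted p 1.78e-07), with 1.99 to 2.38 in the other settings.

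Dgat1 (chromosome 15) was at 78.4 and 71.1 CPM in the knockout libraries, against 73.8 and 64.3 CPM in the control libraries. The groups overlapped, and the log2 fold change of 0.13 had a 95% interval of -0.10 to 0.37 and an adjusted p of 0.33. Per kb, Dgat2 was 1.21 and 1.33 times Dgat1 in the knockout libraries, against 0.328 and 0.281 times in the control libraries.

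Of 12 tested genes of glycerolipid and sterol ester synthesis beside the DGATs, 6 rose (Gpam, Gpat3, Agpat1, Agpat2, Agpat5 and Soat1), 3 fell (Agpat4, Lpin1 and Lpin2) and 3 did not pass, and without control replicate 2, 1 fell. Beside these counts, 25.0% of all tested genes rose and 24.6% fell. Agpat2, which adds the second fatty acid, was at 76.5 and 68.9 CPM in the knockout libraries, against 52.3 and 48.5 CPM in the control libraries (log2 fold change 0.54, SE 0.10, adjusted p 0.00131). Lpin1, a phosphatase that makes diacylglycerol, was at 1.99 and 1.93 CPM in the knockout libraries, against 6.95 and 5.94 CPM in the control libraries (log2 fold change -1.70, SE 0.22, adjusted p 9.18e-05). Soat1, which makes cholesterol esters, the other lipid of macrophage droplets, rose by a log2 fold change of 0.72 (SE 0.09, adjusted p 4.98e-05).

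Plin2 (chromosome 4) codes for the main droplet coat protein of macrophages, adipophilin. It was at 490.1 and 446 CPM in the knockout libraries, against 351 and 348 CPM in the control libraries. Both knockout libraries lay above both controls, with means of 468 ± 31.5 and 349 ± 2.46 CPM (SD, n = 2 each), a 1.34-fold difference. This gave a log2 fold change of 0.44 (SE 0.09, adjusted p 0.0027), and it ranged from 0.35 to 0.53 in the other settings, all of which it passed.

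Plin2 held 87.7% and 86.9% of the perilipin level per kb in the knockout libraries, against 85.5% and 85.8% in the control libraries. Plin3 made up nearly all of the rest. Plin5, known from oxidative tissues, fell to 0.445 and 0.486 CPM in the knockout libraries, against 2.43 and 1.59 CPM in the control libraries (log2 fold change -2.09, SE 0.42, adjusted p 0.00171). Of 9 tested droplet proteins beside Plin2, 3 rose (Plin3, Hilpda and Ldah) and 2 fell (Plin5 and Bscl2), where 25.0% and 24.6% of all genes did. The other 4 did not pass. Bscl2, the gene of the droplet assembly protein seipin, had a log2 fold change of -0.60 (SE 0.11). Of all these, Hilpda, whose product sits on droplets and inhibits the triglyceride lipase, had the largest rise, with a mean of 254.5 CPM in the knockout, against 20.3 CPM in the control (log2 fold change 3.66, SE 0.10, adjusted p 1.31e-09).

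Pnpla2 (chromosome 7) codes for that lipase, ATGL, which starts droplet breakdown. It was at 80.1 and 69.1 CPM in the knockout libraries, against 93.5 and 83.2 CPM in the control libraries. The higher knockout library lay just under the lower control library. The log2 fold change was -0.23 with a 95% interval of -0.47 to 0.02 and an adjusted p of 0.112, and without knockout replicate 1 it was -0.36 with an adjusted p of 0.0105.

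Of the lipase's regulators, its coactivator Abhd5 and its inhibitor Hilpda rose, and G0s2, another inhibitor, did not pass. Abhd5 was at 83.2 and 85.1 CPM in the knockout libraries, against 61.5 and 70.4 CPM in the control libraries (log2 fold change 0.36, SE 0.10, adjusted p 0.0136). G0s2 was at 16.3 and 15.3 CPM in the knockout libraries, against 17.3 and 16.0 CPM in the control libraries (adjusted p 0.746). Of 8 tested genes of lipolysis beside Pnpla2, 4 rose (Mgll, Abhd5, Abhd6 and Hilpda), 3 fell (Lipe, Lipa and Daglb) and 1 did not pass. Among all genes 25.0% rose and 24.6% fell. Lipa, the acid lipase of lysosomes, was at 229 and 227 CPM in the knockout libraries, against 514 and 500.4 CPM in the control libraries (log2 fold change -1.14, SE 0.09, adjusted p 1.45e-06). Daglb, a lipase that acts on diacylglycerol, had a log2 fold change of -1.38 (SE 0.13).

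**Figure D3:**
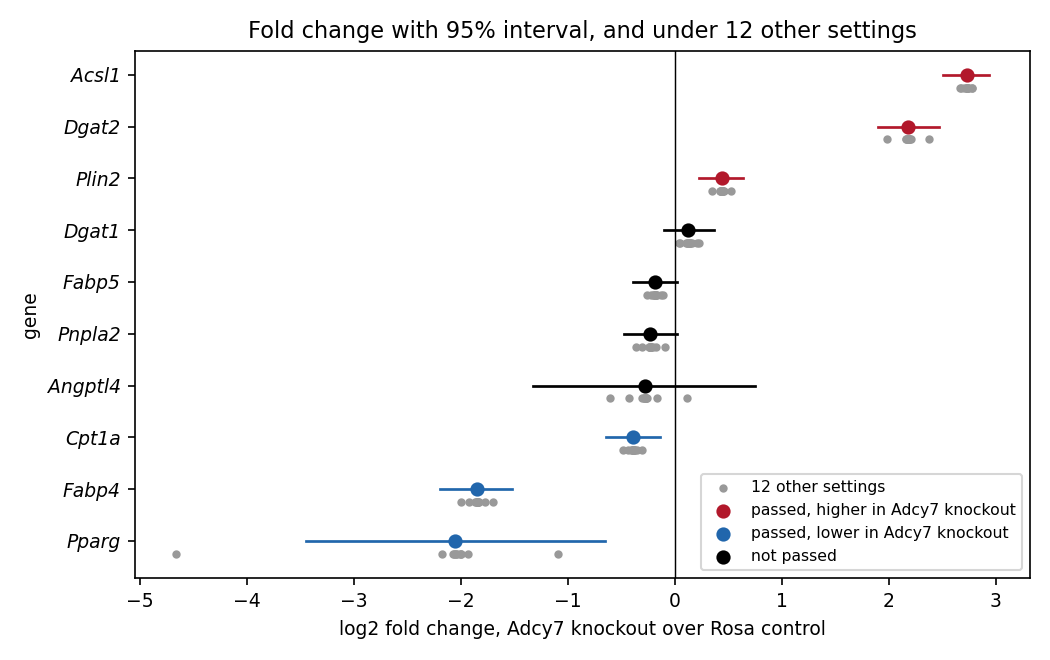
Log2 fold change of each of the 10 genes, Adcy7 knockout over Rosa control, with its 95% interval (large points and lines), and the values under 12 other settings (grey points). Acsl1 at 2.73 and Dgat2 at 2.18 keep tight intervals, while the grey points of Pparg run from -4.66 to -1.09 and those of Angptl4 from -0.60 to 0.12.

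Cpt1a (chromosome 19), the gene of the carnitine palmitoyltransferase that admits fatty acids to mitochondrial oxidation, fell modestly. It was at 30.4 and 27.6 CPM in the knockout libraries, against 40.3 and 36.7 CPM in the control libraries. The groups did not overlap, and the mean of 29.0 ± 1.95 CPM in the knockout was 75.3% of the 38.5 ± 2.52 CPM in the control (SD, n = 2 each). The log2 fold change was -0.39 (SE 0.11, adjusted p 0.014). Without control replicate 1 it was -0.35 and did not pass (adjusted p 0.129). Cpt1a held nearly all of the CPT1 level per kb in each of the 4 libraries.

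With all 4 libraries, most tested genes of mitochondrial beta oxidation fell, as Cpt1a did, where 24.6% of all tested genes fell. Of 15 tested, 12 fell, 1 rose (Eci1) and 2 did not pass (Hadha and Etfb), at a median log2 fold change of -0.42, where the median of all tested genes was 0.01. The number that fell was 7 without control replicate 1 and 5 without control replicate 2, where none rose. Acadl, the long-chain acyl-CoA dehydrogenase, was at 60.5 CPM in both knockout libraries, against 109 and 103 CPM in the control libraries (log2 fold change -0.80, SE 0.09, adjusted p 3.82e-05). Hadh and Echs1, which act later in the spiral, had log2 fold changes of -0.72 (SE 0.14) and -0.49 (SE 0.10). Acadl's was the lowest value of the list.

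Of 6 tested genes of the carnitine shuttle beside Cpt1a, 3 passed, a share close to the 49.6% of all genes: 1 rose (Slc22a5) and 2 fell (Cpt1c and Crot), while Cpt2, Slc25a20 and Crat did not pass. Log2 fold changes were 0.48 (SE 0.18) for Slc22a5, a carnitine importer, -1.15 (SE 0.43) for Cpt1c and -0.43 (SE 0.15) for the peroxisomal enzyme gene Crot. Slc22a5 and Cpt1c did not pass once any 1 of the 4 libraries was left out, nor did Crot without knockout replicate 1 or control replicate 2. Cpt2, the inner partner of CPT1, did not pass (log2 fold change -0.30, 95% interval -0.58 to -0.01, adjusted p 0.0793).

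Genes of peroxisomal oxidation, which shortens very long fatty acids, fell more often than they rose. Of all tested genes, 25.0% were higher and 24.6% lower. Of 14 tested, 9 fell (6 without control replicate 1, and 6 without control replicate 2), 3 rose (Abcd3 and Pecr among them) and 2 did not pass, at a median log2 fold change of -0.34. Abcd2, an importer of very long acyl-CoA, was at 8.38 and 10.8 CPM in the knockout libraries, against 34.3 and 40.9 CPM in the control libraries (log2 fold change -1.96, SE 0.15, adjusted p 1.59e-06). Scp2, a thiolase and lipid carrier, had a log2 fold change of -0.68 (SE 0.10). Acaa1a and Acaa1b are close copies, so their counts may be split.

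**Figure D4:**
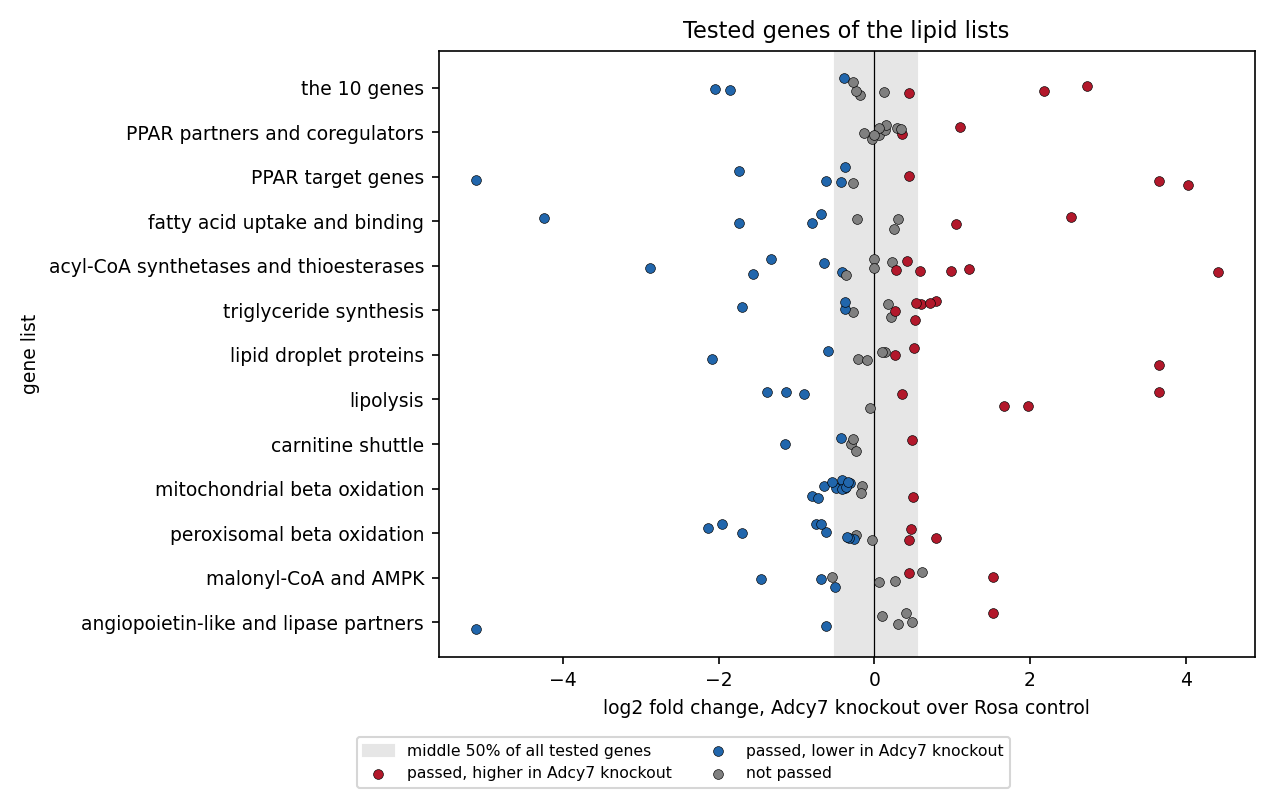
Log2 fold change, Adcy7 knockout over Rosa control, of the tested genes of each lipid list, with the middle 50% of all tested genes shaded. Red and blue points passed, higher and lower, and grey points did not. Of the 15 points for mitochondrial beta oxidation 12 are blue, while those for triglyceride synthesis are 6 red and 3 blue. Ppargc1a, with no control count, is not drawn.

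Malonyl-CoA is the natural inhibitor of CPT1. Of 9 tested genes that set its level or code for AMP-activated kinase, 2 rose (Prkaa1 and Prkaa2) and 3 fell (Acaca, Mlycd and Prkag2). The other 4 did not pass, and of all genes 25.0% rose and 24.6% fell. Without control replicate 1 none of the list rose, and without knockout replicate 1 a single gene did. Acaca, which makes malonyl-CoA, was at 13.2 and 14.5 CPM in the knockout libraries, against 23.8 and 21.2 CPM in the control libraries. Mlycd, which removes it, was at 19.5 and 20.8 CPM in the knockout libraries, against 27.9 and 29.5 CPM in the control libraries. Their log2 fold changes were -0.69 (SE 0.13) and -0.50 (SE 0.11), and Prkag2, a regulatory subunit of the kinase, had -1.45 (SE 0.16). Mlycd did not pass without control replicate 2 (adjusted p 0.0583).

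Angptl4 (chromosome 17) codes for a secreted inhibitor of lipoprotein lipase and is a classic PPAR target. It was scarce, at 0.640 and 0.550 CPM in the knockout libraries, against 0.563 and 0.902 CPM in the control libraries, from 34 to 63 counts a library. The groups overlapped. The log2 fold change of -0.28 had a 95% interval of -1.32 to 0.75 and an adjusted p of 0.646. Without control replicate 2 it was 0.12 (adjusted p 0.918).

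Lpl, the gene of the lipase that ANGPTL4 inhibits, was at 25.0 and 28.2 CPM in the knockout libraries, against 924 and 946 CPM in the control libraries (log2 fold change -5.12, SE 0.11, adjusted p 2.85e-10). All tested genes gave 25.0% higher and 24.6% lower. Of 7 tested genes of the rest of the ANGPTL family and of the lipases, 1 rose (Angptl6), 2 fell (Lpl and Lipg) and 4 did not pass. Without knockout replicate 2, 3 rose. Angptl6 was at 11.7 and 9.87 CPM in the knockout libraries, against 3.31 and 4.22 CPM in the control libraries (log2 fold change 1.53, SE 0.20, adjusted p 7.71e-05). Lipg, the endothelial lipase, had a log2 fold change of -0.62 (SE 0.19, adjusted p 0.0202), which did not pass without control replicate 1 (0.184), without knockout replicate 1 (0.104) or with no low-count filter (0.0936).

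Set side by side per kb, Fabp5 and Plin2 held the top 2 places in all 4 libraries. With principal transcript lengths Fabp5 led, at 307 and 300.1 CPM per kb in the knockout libraries, against 334 and 362 in the control libraries, and Plin2 was at 260 and 236 in the knockout libraries, against 186 and 184 in the control libraries. With the length of all annotated exons the order of this pair turned in both knockout libraries and in control replicate 1, where Plin2 was at 139.5, 127 and 99.99 CPM per kb and Fabp5 at 85.1, 83.0 and 92.4. By both lengths Acsl1 came next in the knockout libraries, and then Dgat2, at 136 and 152 and at 50.1 and 50.2 CPM per kb of principal transcript. By both lengths Pnpla2 was in place 3 in the control libraries, at 51.9 and 46.3 CPM per kb of principal transcript, above Acsl1 at 21.4 and 22.5 and Dgat2 at 12.8 and 9.56. Dgat1 and Pnpla2 in the knockout were not separated beyond the spread between libraries. The order of Fabp4 among its neighbours changed with the length used. Pparg and Angptl4 held the last 2 places in every library, and they overlapped in the knockout.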

How the data were processed

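Poly(A) RNA was sequenced in 4 libraries. The authors deposited estimated counts for each Ensembl gene, as whole numbers. The submitters' processing notes list build GRCm39 and the tools fastp, HISAT2, StringTie and edgeR. Their versions and settings were not given in the sources used here. In this table low counts pile up at multiples of 4 (30.54% to 32.17% of counts from 1 to 40, where 25% would be without a step), so 1 fragment may be worth about 4 counts. That is an assumption, and the level of 3 fragments (12 counts) covers counting error only. The 4 columns were matched to sample titles by target and replicate number.

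Symbols and transcript lengths came from the GENCODE annotation of GRCm38, with 55141 of 55401 IDs matched. Levels per kb use the longest principal transcript. Genes were filtered with filterByExpr, scaled with TMM factors, and fitted by the quasi-likelihood method of edgeR 4.0.16 in R 4.3.3 (2 residual degrees of freedom). The script was tested on simulated data with 200 changed genes. Here 49.6% of genes passed, a setting which that simulation does not cover. Standard errors are the log2 fold change over the root of F. DESeq2 1.42.0 was an alternative. The members, lists and tests were chosen with earlier results of these data known. Named genes are the 10 members, Adcy7, and up to 3 genes with the smallest p from each of 12 lists that passed and averaged 1 CPM or more in a group. Other genes were added, after their values were seen, as family members, lipase partners or calls of a list. Some genes of the lists are counted but not reported here by name.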

Additional observations from a re-analysis of the deposited data

How the results depend on the processing

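Under 12 other settings (11 planned and the older edgeR fit, chosen after seeing the data), 3 of the 10 genes were higher in every one, and 3 were lower in 8 and 2 in 4. Leaving out 1 library gave 3 higher throughout and 2 to 3 lower. Over all genes, leaving out 1 library gave 2948 to 3844 higher and 3137 to 3710 lower, against 3952 and 3896 with all 4. Of 120 values of the 10 genes, 113 kept direction and call, 5 lost the call (4 of Pparg, 1 of Cpt1a), 1 gained it (Pnpla2, without knockout replicate 1, where Pparg lost it) and 1 turned round. That was Angptl4, which ranged from -0.60 to 0.12 on the log2 scale with 1 library left out and did not pass in any setting. Other scalings moved the median of all genes to between -0.001 and 0.038, and counts divided by 4 to 0.001. With the replicate number as a replicate block, 3932 genes were higher and 3911 lower, 3 of the 10 higher and 3 lower, and Pparg had a log2 fold change of -2.05 (adjusted p 0.0137). Deviations of same-numbered libraries correlated at 0.0264 over 15832 genes. That value cannot tell whether same-numbered libraries share a mouse or culture, which the labels do not give. The values of Pparg and Angptl4 are limited by their low counts. With 2 libraries a group, no spread within a group can be checked for an outlying library.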
